A study of Mus musculus with 12 samples.

Results

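The nuclear genes of oxidative phosphorylation were followed through 4 groups of HoxB8 cells. They were taken from the deposited count table by symbol, as every row whose name begins with Ndufa, Ndufb, Ndufc, Ndufs, Ndufv, Uqcr, Cox4 to Cox8 or Atp5, or is Sdha, Sdhb, Sdhc or Sdhd, with names containing "-ps" left out. This gave 92 of 24411 symbols. Of these, 36 were placed in complex I, 4 in complex II, 8 in complex III, 12 in complex IV and 15 in complex V. Another 9 (Ndufaf1 to Ndufaf7, Atp5s and Atp5sl) were kept apart as assembly or accessory factors, and 8 as isoforms known from particular tissues or from low oxygen. The rule uses names alone, with no measured value.

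HoxB8 cells are mouse bone marrow progenitors kept immature by a Hoxb8 protein that works only in the presence of estrogen. In every group estrogen had been withdrawn for 24 h before RNA was taken. Cells carried 2 vectors, pMIG and pMICH. Asxl1-MT2/T618I cells carried pMIG-Asxl1-MT2, an overexpressed truncation of Asxl1, together with pMICH-CSF3R-T618I, an activating change in the receptor for granulocyte colony-stimulating factor. Asxl1-MT2/Empty cells carried pMIG-Asxl1-MT2 with empty pMICH, Empty/T618I cells empty pMIG with pMICH-CSF3R-T618I, and Empty/Empty cells both vectors empty. Each group had 3 libraries, which the table marks with the letters A, B and C. All 4 groups are immortalised HoxB8 cells with overexpressed constructs, and nothing in the labels ties the 3 libraries of a group to different cultures. The p-values below therefore rest on a spread that may be technical.

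Oxidative phosphorylation passes electrons from NADH through complex I, and from succinate through complex II, to ubiquinone, then through complex III and cytochrome c to complex IV, where oxygen is reduced. Complexes I, III and IV pump protons, and complex V, the ATP synthase, uses the gradient to make ATP. Most subunits are encoded in the nucleus, and nuclear respiratory factor NRF1, GABP and YY1 are known to bind many of their promoters. Mature neutrophils are known for few mitochondria and for relying largely on glycolysis, whereas their progenitors respire.

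Library totals ran from 9341984 to 10252291 counts, and values are given as CPM, each library's counts relative to its total corrected by edgeR's TMM factor, 0.919 to 1.03. Socs3, a target of receptor signalling, averaged 229 ± 34.0 CPM in Asxl1-MT2/T618I and 165 ± 12.6 CPM in Empty/T618I, against 10.7 ± 0.360 CPM in Asxl1-MT2/Empty and 12.7 ± 0.972 CPM in Empty/Empty (SD, n = 3 each). Asxl1 averaged 1004 ± 83.7 CPM in Asxl1-MT2/T618I and 1744 ± 79.8 CPM in Asxl1-MT2/Empty, against 149 ± 16.9 CPM in Empty/T618I and 119 ± 4.53 CPM in Empty/Empty. Csf3r averaged 1330 ± 361 CPM, 293 ± 35.5 CPM, 431 ± 39.3 CPM and 298 ± 57.6 CPM in Asxl1-MT2/T618I, Asxl1-MT2/Empty, Empty/T618I and Empty/Empty, so it was higher in both T618I groups. The library titled Empty/Empty 3 carries a genotype label that names T618I, and its letter is not given. All 3 Empty/Empty columns had low Socs3, from 11.9 to 13.8 CPM, and groups were taken from the titles. Libraries of letter C stood apart within 3 groups on the fourth principal component of all genes (2.36% of the variance), at 11.2 in Asxl1-MT2/Empty, 15.2 in Empty/T618I and 16.3 in Empty/Empty. The other libraries, Asxl1-MT2/T618I C among them, lay between -11.3 and 4.86. Empty/T618I C also had the fewest counts.

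Cell type markers differed between the groups. The summed level of 13 mature neutrophil markers ran from 21800 to 30820 CPM in Asxl1-MT2/T618I, 2418 to 3376 CPM in Asxl1-MT2/Empty, 4285 to 5418 CPM in Empty/T618I and 1886 to 2822 CPM in Empty/Empty. That of 8 progenitor markers ran from 13890 to 18320 CPM in Asxl1-MT2/T618I, 37430 to 41830 CPM in Asxl1-MT2/Empty, 15570 to 18390 CPM in Empty/T618I and 33300 to 41970 CPM in Empty/Empty. A few abundant genes carry these sums, Mpo alone averaging 10741 CPM, 30194 CPM, 12001 CPM and 29732 CPM in Asxl1-MT2/T618I, Asxl1-MT2/Empty, Empty/T618I and Empty/Empty, and not every marker followed them. With T618I in cells without Asxl1-MT2, 9 of 13 neutrophil markers were higher and 1, Camp, was lower, while 7 of 8 progenitor markers were lower and Cd34 was not called. With T618I in Asxl1-MT2 cells, all 13 neutrophil markers were higher and 6 of 8 progenitor markers lower. The progenitor list includes Hoxb8, the gene that keeps these cells immature, and the neutrophil list Csf3r, the gene of the introduced receptor. How much of their counts comes from the constructs was not tested. The 11 mast cell and basophil markers summed to between 2855 and 3209 CPM in Asxl1-MT2/T618I and between 2819 and 5427 CPM in Empty/T618I, against 404 to 480 CPM in Asxl1-MT2/Empty and 736 to 914 CPM in Empty/Empty. The 9 monocyte markers summed to 983 to 1347 CPM, 725 to 819 CPM, 495 to 548 CPM and 559 to 653 CPM in Asxl1-MT2/T618I, Asxl1-MT2/Empty, Empty/T618I and Empty/Empty. The 8 megakaryocyte and erythroid markers summed to between 126 and 170 CPM in Asxl1-MT2/T618I and between 179 and 266 CPM in Empty/T618I. In Asxl1-MT2/Empty they summed to 33.7 to 38.5 CPM and in Empty/Empty to 51.5 to 64.2 CPM. Of these markers 6 were tested, and 5 were higher with T618I, both with and without Asxl1-MT2. Hba-a1 and Hbb-b1 had 0 counts in every library. These are bulk samples, in which fewer cells of a type and less RNA per cell cannot be told apart, and the part that the cell makeup has in the values below was not tested.

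Of the 92 members, 84 passed the filter on low counts. Ndufs5, an accessory subunit of complex I, was listed with 0 counts in all 12 libraries. The other 35 members of complex I passed the filter. The counting tool and annotation are not given, so absent expression and uncounted reads cannot be told apart for Ndufs5. The tissue isoforms Cox7b2 and Cox8c also had 0 counts in all 12 libraries. Among the other tissue isoforms that failed the filter, Cox8b had 1 count, Cox4i2 10 and Ndufa4l2 13 over the 12 libraries. Cox6a2, the muscle form of subunit 6a, had 43 counts, and Cox7a1, the heart and muscle form of subunit 7a, had 86. The usual forms were abundant instead. Cox4i1 averaged 259 ± 9.95 CPM in Asxl1-MT2/T618I, 281 ± 30.1 CPM in Asxl1-MT2/Empty, 226 ± 34.1 CPM in Empty/T618I and 262 ± 13.9 CPM in Empty/Empty. Across the 4 group means, Cox6a1 lay between 176 and 209 CPM, Cox6b1 between 186 and 224 CPM, Cox7a2 between 100.1 and 129 CPM, Cox7b between 117 and 161 CPM, and Ndufa4, the counterpart of Ndufa4l2, between 105 and 160.5 CPM.

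Per kilobase of annotated exon (GENCODE, GRCm38), the median level was 54.4 CPM per kb for complex I, 85.3 for complex II, 138 for complex III, 217 for complex IV, 141 for the 14 members of complex V with a unique gene model, while the assembly factors lay between 4.29 and 16.2. The complex I median counts Ndufs5 at 0. The catalytic beta subunit of the ATP synthase, Atp5b (chr10:128083273-128090391, plus strand), stood highest at 671 CPM per kb. The members with the highest mean CPM in complexes II to V were Sdha, the flavoprotein of complex II, Uqcrc1, a core protein of complex III, Cox8a of complex IV and Atp5b of complex V. Uqcrc1 averaged 229.5 ± 6.16 CPM in Asxl1-MT2/T618I, 284 ± 25.6 CPM in Asxl1-MT2/Empty, 241 ± 13.5 CPM in Empty/T618I and 262 ± 31.8 CPM in Empty/Empty. Cox8a averaged 276 ± 15.5 CPM in Asxl1-MT2/T618I, 305 ± 27.6 CPM in Asxl1-MT2/Empty, 248.6 ± 51.8 CPM in Empty/T618I and 288 ± 75.3 CPM in Empty/Empty, a spread that is as large as the differences.

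The members moved little between the groups. For 76 of the 84 tested members (90.5%), the highest and the lowest of the 4 group means were less than 1.5-fold apart, against 58.8% of all 11578 genes tested. Among genes with a mean of at least 10 CPM, a background chosen after the data were seen, these shares were 93.8% of 80 members and 69.1% of 8738 genes. The median spread within groups was close for both, a coefficient of variation of 9.26% for these members and 8.76% for these genes.

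**Figure D1:**
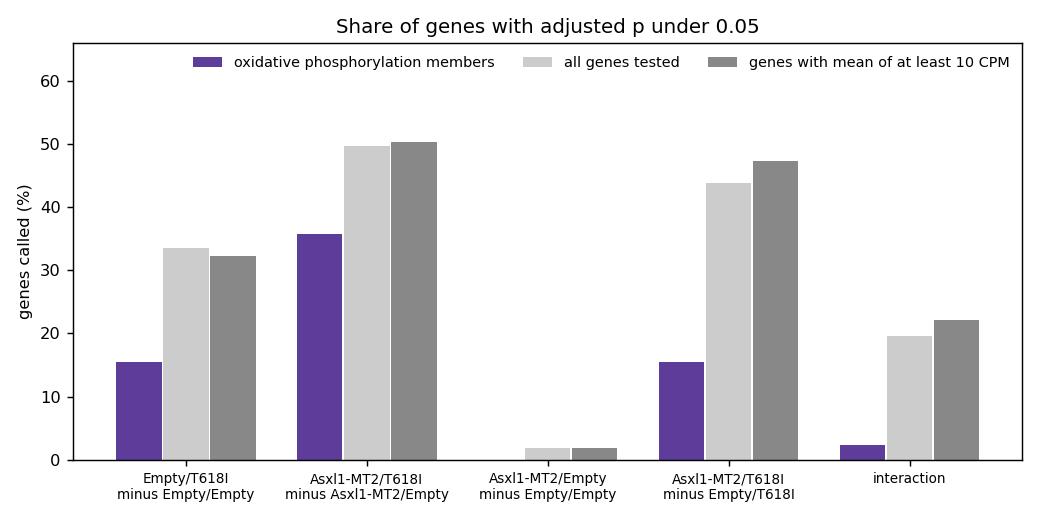
Percentage of genes called (edgeR adjusted p under 0.05, Benjamini-Hochberg over 11578 genes) among 84 oxidative phosphorylation members (purple), all genes tested (light grey) and genes with a mean of at least 10 CPM (dark grey), for each comparison on the horizontal axis. In each of the 5 comparisons the members' bar is the lowest of the 3, from 0 to 35.7%.

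The effect of T618I in cells without Asxl1-MT2 was read from Empty/T618I against Empty/Empty. Of all genes tested 33.5% differed (17.6% higher, 15.9% lower), and 32.3% of those of at least 10 CPM. A gene is called here at an edgeR adjusted p under 0.05, with Benjamini-Hochberg adjustment over all 11578 genes. Of the 84 members, 2 were higher and 11 lower, 15.5% in all. The median log2 fold change of the members was -0.11, against 0.0037 for all genes. Of the 84 values, 64 (76.2%) were below 0, against 49.5% of all genes. By complex, 4 of 35 tested members of complex I were lower, 1 of 8 of complex III, 3 of 12 of complex IV and 2 of 9 assembly factors, and the isoform Cox6b2, while 1 of 4 of complex II and 1 of 15 of complex V were higher. The median was -0.061 in complex I, -0.13 in complex II, -0.080 in complex III, -0.21 in complex IV, -0.12 in complex V and -0.11 in the assembly factors.

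The size of this shift depended on 1 library. Without Empty/T618I C the median of the members was -0.010 and 5 members were lower, and without the 4 libraries of letter C the median was -0.0021, with 7 higher and 9 lower. The count of lower members was 7 without Empty/T618I B, 7 without Empty/Empty A and 6 without Empty/Empty B. Summed over complex IV, Empty/T618I C stood at 0.743 of the Empty/Empty mean, against 0.962 and 0.911 in Empty/T618I A and B. Calls of Ndufb3, Ndufa4, Ndufv3 and Sdhb were kept whichever library was left out.

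The effect of T618I in cells that also carried Asxl1-MT2 was read from Asxl1-MT2/T618I against Asxl1-MT2/Empty, 2 groups that share no library with the comparison above. Here 49.8% of all genes differed (26.9% higher, 22.8% lower) and 50.4% of those of at least 10 CPM. Of the 84 members, 1 was higher and 29 lower, 35.7% in all. The median log2 fold change of the members was -0.19, against -0.015 for all genes. Of the 84 values, 78 (92.9%) were below 0, against 51.3% of all genes. Lower were 8 of 35 in complex I, 2 of 4 in complex II, 5 of 8 in complex III, 3 of 12 in complex IV, 5 of 15 in complex V and 5 of 9 assembly factors, and Cox6b2. The median was -0.17, -0.25, -0.25, -0.17 and -0.15 in complexes I to V and -0.35 in the assembly factors. Leaving out 1 library at a time gave 21 to 35 lower members, and 22 of the 30 calls were kept throughout. Scaling by library totals alone or by upper quartiles gave 0 higher and 48 or 51 lower members, the median of all genes moving to -0.12 or -0.14, with the share of all calls that were higher at 40.5% or 37.8% in place of 54.1%. The members' median less that of all genes was -0.17 under each scaling. That difference could hardly change, as a scaling factor moves all genes by nearly the same amount. Without the libraries of letter C, 46 members were lower.

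**Figure D2:**
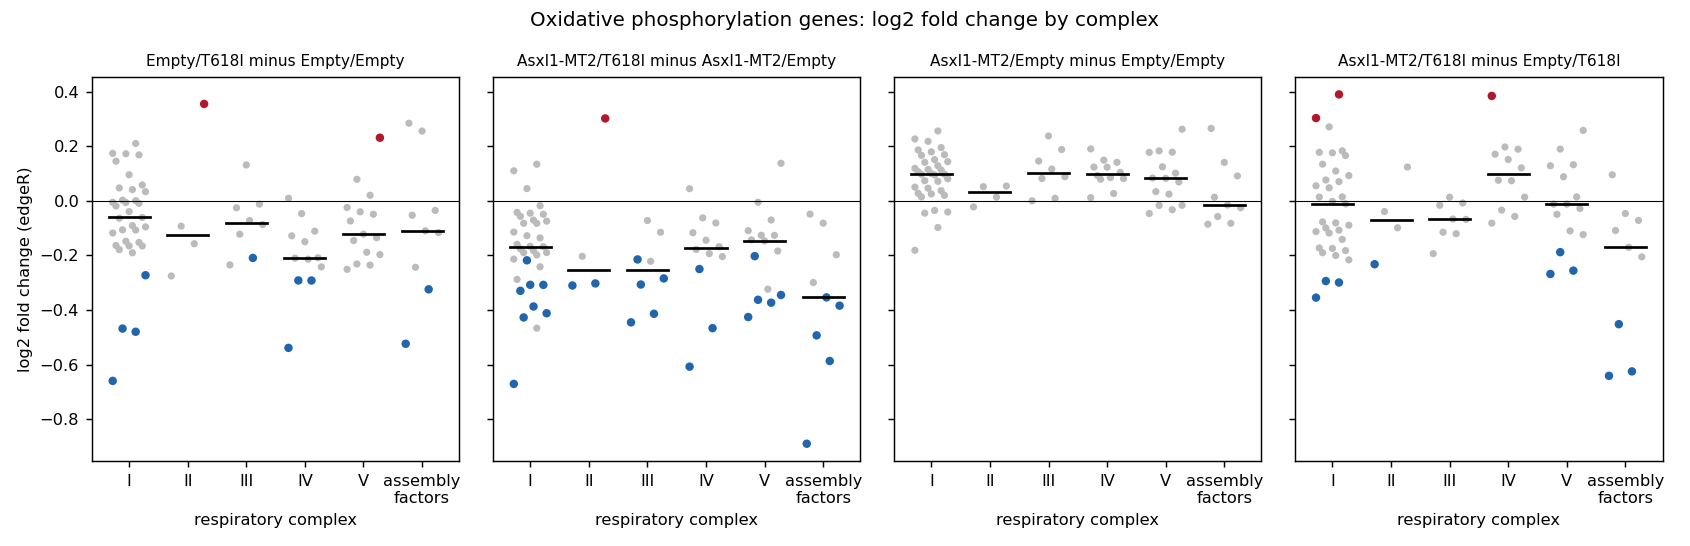
edgeR log2 fold change (vertical axis) of each tested subunit of complexes I to V and of each assembly factor (horizontal axis) in 4 comparisons, with calls in red (higher) and blue (lower), the rest in grey and a bar at the median; Cox6b2 is not drawn. Most points of the second panel (Asxl1-MT2/T618I minus Asxl1-MT2/Empty) lie below 0, and no point of the third panel (Asxl1-MT2/Empty minus Empty/Empty) is called.

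Summed over a complex, all 6 classes were lower in the 3 Asxl1-MT2/T618I libraries than in any Asxl1-MT2/Empty library. Relative to the Empty/Empty mean, complex I lay between 0.927 and 0.957 in Asxl1-MT2/T618I and between 0.961 and 1.123 in Asxl1-MT2/Empty. Complex III lay between 0.876 and 0.904 in Asxl1-MT2/T618I and between 1.002 and 1.131 in Asxl1-MT2/Empty. The assembly factors were furthest apart, between 0.760 and 0.834 in Asxl1-MT2/T618I and between 0.980 and 1.06 in Asxl1-MT2/Empty. All members together took 0.878 to 0.939% of the counts in Asxl1-MT2/T618I, 1.05 to 1.17% in Asxl1-MT2/Empty, 0.956 to 1.09% in Empty/T618I and 1.07 to 1.11% in Empty/Empty. With 3 libraries against 3, an exact permutation test of such a sum cannot go below p = 0.1.

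**Figure D3:**
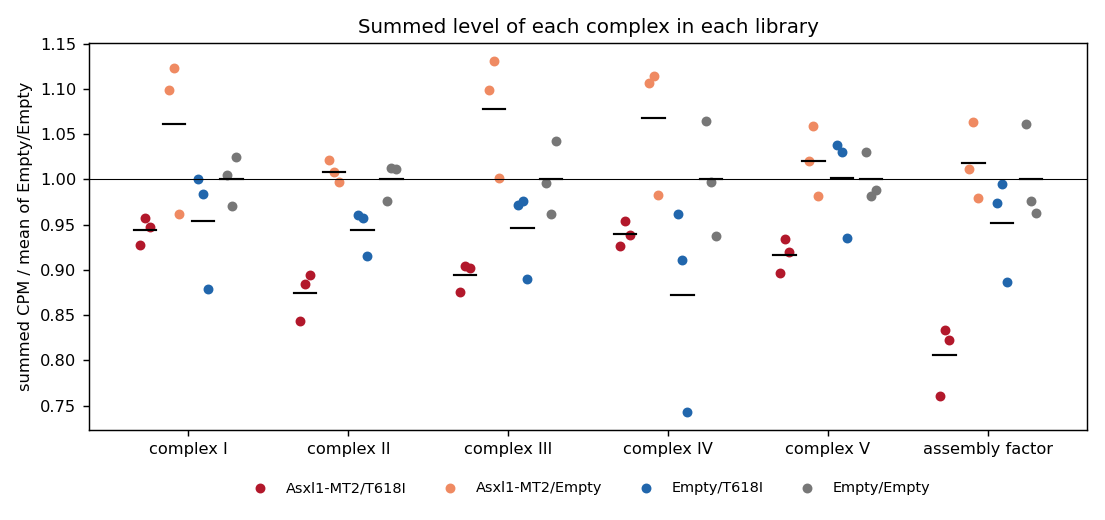
Summed CPM of each complex and of the assembly factors (horizontal axis) in each library, relative to the mean of Empty/Empty (vertical axis, which does not start at 0), with a point for each library and a bar at the group mean, n = 3. The Asxl1-MT2/T618I points lie below the Asxl1-MT2/Empty points in every class, and the lowest point of complex IV, 0.743, is Empty/T618I C.

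Leaving out Cox6b2, which is described apart, 11 of the 12 members called with T618I in cells without Asxl1-MT2 (91.7%) were called in the same direction in cells with it. They made up 37.9% of the 29 calls there, so most calls with Asxl1-MT2 were not shared. Over all genes tested the 2 shares were 67.3% and 45.3%. A call in only 1 of the comparisons is not a tested difference between them. In the interaction test described further on, 2 of the 84 members passed. The 10 shared lower members were Ndufb2, Ndufb3, Ndufb5, Ndufv3, Uqcrb, Cox7a2, Cox7b, Ndufa4, Atp5s and Atp5sl, and Sdhb was the shared higher one. No member was called in opposite directions. Such genes were also few over all genes tested, 146 of 11578.

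Ndufb3, an accessory subunit in the membrane arm of complex I (chr1:58586384-58595964, plus strand), had 43.6, 44.5 and 50.6 CPM in Asxl1-MT2/T618I and 79.2, 72.9 and 68.8 CPM in Asxl1-MT2/Empty. It had 43.8, 40.4 and 38.6 CPM in Empty/T618I and 59.4, 56.6 and 78.2 CPM in Empty/Empty. Every T618I library was below every library without T618I. The log2 fold change was -0.67 ± 0.11 with Asxl1-MT2 (SE, edgeR adjusted p = 0.000106) and -0.66 ± 0.12 without (edgeR adjusted p = 0.00022).

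Ndufa4, first described with complex I and now known as a subunit of complex IV (chr6:11900292-11907497, minus strand), had 92.7, 111 and 112 CPM in Asxl1-MT2/T618I and 169, 160 and 152 CPM in Asxl1-MT2/Empty. Empty/T618I libraries had 120, 111 and 97.3 CPM and Empty/Empty libraries 159, 149 and 169 CPM. Again the T618I libraries lay wholly below the others. Its log2 fold change was -0.61 ± 0.095 with Asxl1-MT2 (edgeR adjusted p = 4.55e-05) and -0.54 ± 0.094 without (edgeR adjusted p = 0.000235).

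Sdhb, the iron-sulfur subunit of complex II (chr4:140961203-140979193, plus strand), went the other way. It had 85.9, 90.7 and 84.7 CPM in Asxl1-MT2/T618I and 71.1, 75.2 and 65.8 CPM in Asxl1-MT2/Empty. Empty/T618I libraries had 91.2, 86.1 and 91.3 CPM and Empty/Empty libraries 64.2, 69.1 and 76.8 CPM, and the T618I libraries lay wholly above the others. The log2 fold change was 0.30 ± 0.084 with Asxl1-MT2 (edgeR adjusted p = 0.00656, past the threshold under TMM but lost under library totals and upper quartile scaling) and 0.35 ± 0.084 without (edgeR adjusted p = 0.00301). The other 3 subunits of complex II had negative values in both comparisons. Sdha averaged 252 ± 9.99 CPM in Asxl1-MT2/T618I, 310.4 ± 11.4 CPM in Asxl1-MT2/Empty, 296 ± 12.9 CPM in Empty/T618I and 315 ± 21.6 CPM in Empty/Empty. It fell with T618I in cells with Asxl1-MT2 (-0.30 ± 0.075, edgeR adjusted p = 0.00288), as did Sdhd, a membrane anchor of the complex (-0.31 ± 0.086, edgeR adjusted p = 0.00633). Sdhc, the other anchor, averaged 110.2 ± 12.6 CPM in Asxl1-MT2/T618I, 127 ± 8.79 CPM in Asxl1-MT2/Empty, 101 ± 13.9 CPM in Empty/T618I and 122 ± 19.0 CPM in Empty/Empty and was not called in either.

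The sequences just before the RefSeq starts of these 3 genes, and of Ndufaf4, which is described further on, are shown because these members carry the main results and were called in different directions. They are 120 bases each on the strand of the gene, from RefSeq on GRCm38.p6, and capitals mark the NRF1 core GCGCATGC read on either strand, with 2 matches that overlap on opposite strands in Ndufaf4. The RefSeq starts differ from the GENCODE gene positions given above. Part of the stretches of Sdhb, Ndufa4 and Ndufb3 therefore lies inside those positions, as does the marked match of Sdhb.
Sdhb, chr4:140961151-140961270: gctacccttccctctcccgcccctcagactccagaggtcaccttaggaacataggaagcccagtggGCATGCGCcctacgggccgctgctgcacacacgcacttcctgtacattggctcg
Ndufaf4, chr4:24897963-24898082: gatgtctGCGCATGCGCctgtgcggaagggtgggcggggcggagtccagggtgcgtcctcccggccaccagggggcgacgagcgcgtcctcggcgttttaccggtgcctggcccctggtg
Ndufa4, chr6:11907451-11907570: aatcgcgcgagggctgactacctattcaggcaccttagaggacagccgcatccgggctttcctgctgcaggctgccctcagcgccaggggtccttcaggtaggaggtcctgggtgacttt
Ndufb3, chr1:58586277-58586396: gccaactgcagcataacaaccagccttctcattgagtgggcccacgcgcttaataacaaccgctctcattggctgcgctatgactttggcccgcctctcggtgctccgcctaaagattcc

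RefSeq promoters of 300 bases, from 250 before to 50 after the annotated start, were available for 76 of the 92 members and were searched for motifs. The NRF1 core was found in 12 of them (15.8%), against 3.05% of 27025 genes. The GABP site CCGGAAG was found in 17 (22.4%), against 9.93%, and the YY1 site AAGATGGC in 11 (14.5%), against 3.19%. Both strands were searched, and each motif on its own, so that matches may share bases. Of the 25 members with a promoter that were lower with T618I in Asxl1-MT2 cells, 5 held the NRF1 core, 4 the GABP site and 2 the YY1 site. Of the 46 that were not called there, 6, 12 and 9 held them. With T618I in cells without Asxl1-MT2, 0, 0 and 1 of 10 lower members with a promoter held them. Of the 60 not called in that comparison, 11, 16 and 9 did. The 27025 genes were not limited to those expressed in these cells. These counts are a description of letters in a window, with no test.

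Cox6b2 is the testis form of subunit 6b of complex IV and was the 1 tissue isoform that passed the filter. It passed through the 2 groups without T618I, so a difference was built into its being tested. It had 3, 3 and 5 counts in Asxl1-MT2/T618I and 16, 21 and 10 in Asxl1-MT2/Empty, with 0, 0 and 3 in Empty/T618I and 19, 12 and 10 in Empty/Empty. Summed over libraries and allowing for depth, the ratio of T618I to control cells was 0.247 with Asxl1-MT2 (95% exact interval 0.116 to 0.483) and 0.0713 without (0.0141 to 0.223). These intervals cover counting error only. Its usual counterpart Cox6b1 averaged 196 ± 2.46 CPM in Asxl1-MT2/T618I and 224 ± 16.7 CPM in Asxl1-MT2/Empty, 186 ± 30.5 CPM in Empty/T618I and 219.5 ± 36.4 CPM in Empty/Empty, and was not called.

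Ndufv3, an accessory subunit of the NADH-oxidising module of complex I (chr17:31520115-31531331, plus strand), had 76.7, 78.2 and 76.1 CPM in Asxl1-MT2/T618I and 97.6, 103 and 85.4 CPM in Asxl1-MT2/Empty. It had 58.0, 56.1 and 62.3 CPM in Empty/T618I and 75.7, 83.1 and 87.1 CPM in Empty/Empty. The Empty/T618I libraries were lowest and overlapped no other group. With T618I it fell by 0.31 ± 0.086 on the log2 scale in Asxl1-MT2 cells (edgeR adjusted p = 0.00667) and fell by 0.48 ± 0.087 without (edgeR adjusted p = 0.000325).

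Among the other members of complex I that T618I lowered, Ndufb5 and Ndufb2 of the membrane arm passed in both comparisons. Ndufb5 averaged 95.1 ± 2.65 CPM in Asxl1-MT2/T618I, 128 ± 7.57 CPM in Asxl1-MT2/Empty, 94.1 ± 8.27 CPM in Empty/T618I and 114 ± 1.39 CPM in Empty/Empty. Its call without Asxl1-MT2 was lost without Empty/T618I C or Empty/Empty B (up to an adjusted p of 0.0957), and 11.6% of its exon bases lie over Mrpl47 on the other strand. Ndufb2 averaged 23.4 ± 1.43 CPM in Asxl1-MT2/T618I, 31.1 ± 2.17 CPM in Asxl1-MT2/Empty, 22.1 ± 5.54 CPM in Empty/T618I and 30.7 ± 4.43 CPM in Empty/Empty. Its call with Asxl1-MT2 was lost without Asxl1-MT2/T618I B or C or Asxl1-MT2/Empty A or B (adjusted p up to 0.103), and its call without Asxl1-MT2 without Empty/T618I C or Empty/Empty A or B (up to 0.135). Ndufv1, the core subunit that binds NADH, averaged 60.9 ± 0.551 CPM in Asxl1-MT2/T618I and 76.5 ± 5.91 CPM in Asxl1-MT2/Empty and fell by 0.33 ± 0.079 on the log2 scale (edgeR adjusted p = 0.00226). In Empty/T618I it averaged 68.6 ± 3.36 CPM, against 73.9 ± 1.72 CPM in Empty/Empty, with no call. Ndufa9, Ndufb10 and Ndufc2 were also lower with T618I in Asxl1-MT2 cells. The call of Ndufc2 was lost without Asxl1-MT2/T618I A or C or Asxl1-MT2/Empty A or B (up to 0.107), and that of Ndufb10 without any of 8 libraries (up to 0.127).

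In complex III, Uqcrb, an accessory subunit, had 123, 131 and 134 CPM in Asxl1-MT2/T618I and 169, 174 and 175 CPM in Asxl1-MT2/Empty. It had 134, 130 and 129 CPM in Empty/T618I and 149, 153 and 152 CPM in Empty/Empty, and the T618I libraries lay wholly below the others. The log2 fold change was -0.41 ± 0.067 with Asxl1-MT2 (edgeR adjusted p = 7.13e-05) and -0.21 ± 0.067 without (edgeR adjusted p = 0.023). The second of these was lost without any of 6 libraries, all 3 of Empty/T618I among them (adjusted p up to 0.102), and without the libraries of letter C. Uqcr11, another small subunit, averaged 70.0 ± 2.42 CPM in Asxl1-MT2/T618I and 95.3 ± 12.1 CPM in Asxl1-MT2/Empty and fell by 0.45 ± 0.11 (edgeR adjusted p = 0.00242). Uqcrc1, Uqcrc2 and Uqcrq were lower there too. The call of Uqcrc1 was lost without Asxl1-MT2/Empty B (adjusted p = 0.0554), and those of Uqcrc2 and Uqcrq without any of 6 libraries each (up to 0.118 and 0.177). For Uqcrc2, 26.6% of the exon bases lie over Pdzd9 on the other strand.

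In complex IV, the small subunits Cox7b and Cox7a2 were lower in both comparisons. Cox7b had 117, 118 and 115 CPM in Asxl1-MT2/T618I and 165, 164 and 154 CPM in Asxl1-MT2/Empty, and 143, 126 and 102 CPM in Empty/T618I and 156, 152 and 145 CPM in Empty/Empty. Empty/T618I A lay just under the lowest Empty/Empty library and Empty/T618I C far under it. The log2 fold change of Cox7b with Asxl1-MT2 was -0.47 ± 0.097 (edgeR adjusted p = 0.000733, kept without any 1 library). Cox7a2 averaged 109 ± 4.13 CPM in Asxl1-MT2/T618I, 129 ± 10.7 CPM in Asxl1-MT2/Empty, 100.1 ± 9.52 CPM in Empty/T618I and 123 ± 5.26 CPM in Empty/Empty. Its call with Asxl1-MT2 was lost without Asxl1-MT2/T618I B or Asxl1-MT2/Empty A or B (adjusted p up to 0.101). In cells without Asxl1-MT2 both calls were lost without Empty/T618I B or C or Empty/Empty B, that of Cox7b also without Empty/Empty A (up to 0.184), and both were lost without the libraries of letter C.

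In complex V, T618I lowered Atp5k, Atp5g1, Atp5g2, Atp5o and Atp5a1 in Asxl1-MT2 cells. Atp5k, a small membrane subunit, averaged 43.0 ± 3.10 CPM in Asxl1-MT2/T618I and 57.8 ± 3.32 CPM in Asxl1-MT2/Empty (-0.43 ± 0.10, edgeR adjusted p = 0.00271). Atp5g1 and Atp5g2, which with Atp5g3 encode the same mature c subunit of the proton-carrying ring, changed by -0.37 ± 0.10 and -0.36 ± 0.097. Atp5g3, the third, averaged 207 ± 6.07 CPM in Asxl1-MT2/T618I and 226 ± 23.8 CPM in Asxl1-MT2/Empty and was not called. The call of Atp5a1 was lost without Asxl1-MT2/T618I A or B or Asxl1-MT2/Empty B (adjusted p up to 0.0791). How reads shared by these related genes were counted was not given. Without Asxl1-MT2 the 1 call in the complex was Atp5f1, the b subunit of the stalk, at 359, 330 and 314 CPM in Empty/T618I and 289, 274 and 292 CPM in Empty/Empty (0.23 ± 0.072, edgeR adjusted p = 0.0196). It was lost without Empty/T618I A or Empty/Empty B (adjusted p up to 0.0713), and 21% of its exon bases lie over Wdr77 on the other strand.

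The assembly and accessory factors that T618I lowered in both comparisons were Atp5s, also called coupling factor B, and Atp5sl. Atp5s had 4.78, 5.74 and 6.40 CPM in Asxl1-MT2/T618I and 9.79, 11.4 and 10.2 CPM in Asxl1-MT2/Empty. It had 7.88, 6.78 and 8.56 CPM in Empty/T618I and 12.6, 10.5 and 10.2 CPM in Empty/Empty, so that both T618I groups lay below both groups without T618I. For Atp5s the log2 fold change was -0.89 ± 0.16 with Asxl1-MT2 (edgeR adjusted p = 0.000235) and -0.52 ± 0.16 without (edgeR adjusted p = 0.0147, up to 0.0781 without Empty/T618I B or Empty/Empty A). Atp5sl averaged 31.8 ± 2.67 CPM in Asxl1-MT2/T618I, 41.5 ± 2.99 CPM in Asxl1-MT2/Empty, 32.8 ± 2.58 CPM in Empty/T618I and 41.1 ± 5.46 CPM in Empty/Empty, and its call without Asxl1-MT2 was lost without any of 5 libraries (adjusted p up to 0.176). In Asxl1-MT2 cells Ndufaf4, Ndufaf2 and Ndufaf1 were lower as well. Ndufaf2, a late assembly factor of complex I, averaged 10.0 ± 1.24 CPM in Asxl1-MT2/T618I and 15.0 ± 0.743 CPM in Asxl1-MT2/Empty (-0.59 ± 0.14, edgeR adjusted p = 0.00181). Ndufaf1, which works on the membrane arm of complex I, averaged 14.4 ± 1.09 CPM in Asxl1-MT2/T618I and 20.3 ± 0.925 CPM in Asxl1-MT2/Empty (-0.49 ± 0.11, edgeR adjusted p = 0.00119). Neither was called without Asxl1-MT2, and for neither did the 2 effects of T618I differ past the threshold in the interaction test (edgeR adjusted p = 0.0958 for Ndufaf2 and 0.273 for Ndufaf1).

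The effect of Asxl1-MT2 in cells without T618I was taken as the difference between Asxl1-MT2/Empty and Empty/Empty. It was small in the whole transcriptome, at 1.86% of all genes tested (1.24% higher, 0.622% lower) and 1.83% of those of at least 10 CPM. No member was called by edgeR or by DESeq2, and 5 of 84 had an unadjusted p under 0.05. The values leaned upward, with 16 of 84 (19%) below 0, against 49.8% of all genes, and a median of 0.087 against 0. All 12 members of complex IV and 30 of 35 of complex I were above 0. These members were measured in the same libraries and are not replicates of each other. Summed over complex IV, the libraries overlapped, at 0.982 to 1.114 of the Empty/Empty mean in Asxl1-MT2/Empty and 0.938 to 1.065 in Empty/Empty. Complex I also overlapped, at 0.961 to 1.123 in Asxl1-MT2/Empty and 0.970 to 1.025 in Empty/Empty. The median ran from 0.037 to 0.17 when 1 library was left out, and without the libraries of letter C it was 0.11, with 9 members higher. The 5 members with an unadjusted p under 0.05, named after their values were seen, were Ndufb5, Ndufv3 and Ndufa6 of complex I and Uqcrb and Uqcr11 of complex III, with log2 fold changes of 0.17 to 0.26 and adjusted p-values of 0.236 to 0.441.

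The effect of Asxl1-MT2 in cells that carried T618I was read from Asxl1-MT2/T618I against Empty/T618I, which takes 1 group from each T618I comparison above. Of all genes tested 43.9% differed (25.4% higher, 18.5% lower), and 47.4% of those of at least 10 CPM. Of the 84 members, 3 were higher and 10 lower, 15.5% in all. The median of the members was -0.031, against 0.011 for all genes. Lower were 3 of 35 members of complex I, 1 of 4 of complex II, 3 of 15 of complex V and 3 of 9 assembly factors, with 2 higher in complex I and 1 in complex IV, and no call among the 8 of complex III. Under library totals or upper quartiles 2 members were higher and 22 or 19 lower, the median of all genes moving to -0.12 or -0.10 and the higher share of all calls being 39.2% or 40.9% in place of 57.8%. The members' median less that of all genes was -0.042 under each scaling, a difference that scaling factors can hardly change. The count of lower members was 6 without Asxl1-MT2/T618I A, Asxl1-MT2/T618I B or Empty/T618I A, and 24 without the libraries of letter C.

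Ndufaf4, an assembly factor of the ubiquinone module of complex I (chr4:24898083-24905001, plus strand), had 28.1, 35.7 and 30.1 CPM in Asxl1-MT2/T618I and 48.6, 52.6 and 43.5 CPM in Empty/T618I. It had 38.5, 40.0 and 41.6 CPM in Asxl1-MT2/Empty and 41.3, 41.3 and 38.8 CPM in Empty/Empty. Asxl1-MT2/T618I was the lowest group and Empty/T618I the highest, with no overlap between any of these and the groups without T618I. The rise in Empty/T618I over Empty/Empty was not called. With Asxl1-MT2 in T618I cells it fell by 0.62 ± 0.10 on the log2 scale (edgeR adjusted p = 0.000106).

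Ndufaf6, another assembly factor of complex I, had 5.31, 5.53 and 5.58 CPM in Asxl1-MT2/T618I and 8.46, 8.11 and 9.08 CPM in Empty/T618I. It had 5.04, 7.89 and 7.29 CPM in Asxl1-MT2/Empty and 7.25, 5.77 and 8.05 CPM in Empty/Empty. The first 2 groups did not overlap (-0.64 ± 0.18, edgeR adjusted p = 0.00981). Atp5s was also lower (-0.45 ± 0.17, edgeR adjusted p = 0.0384), a call lost without Asxl1-MT2/T618I A or B or Empty/T618I A or C (up to 0.154), by DESeq2 and without the libraries of letter C.

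The core subunits were lowered by smaller amounts. Ndufs1, the largest iron-sulfur subunit of complex I, averaged 107 ± 3.16 CPM in Asxl1-MT2/T618I and 131.2 ± 11.03 CPM in Empty/T618I (-0.29 ± 0.082, edgeR adjusted p = 0.00806). Atp5a1, the alpha subunit of the ATP synthase, had 888, 948 and 942 CPM in Asxl1-MT2/T618I and 1077, 1140 and 1099 CPM in Empty/T618I, with 1027, 1082 and 1087 CPM in Asxl1-MT2/Empty and 1082, 1092 and 1096 CPM in Empty/Empty. All 3 Asxl1-MT2/T618I libraries lay below the other 9 (-0.26 ± 0.068, edgeR adjusted p = 0.00588). Atp5b had 1147, 1210 and 1210 CPM in Asxl1-MT2/T618I and 1389, 1385 and 1290 CPM in Empty/T618I, a difference of -0.19 ± 0.069 (edgeR adjusted p = 0.036) that was lost without A or B of either group (up to 0.116). Ndufa5 and Ndufa12, accessory subunits of complex I, were lower, at -0.35 ± 0.12 and -0.30 ± 0.0997 (edgeR adjusted p = 0.0245 and 0.0219), each lost without Asxl1-MT2/T618I B and without Empty/T618I B for Ndufa5 or Empty/T618I A for Ndufa12 (up to 0.0993 and 0.0709). Sdha changed by -0.23 ± 0.075 (edgeR adjusted p = 0.018), lost without Asxl1-MT2/T618I A (0.0653), and Atp5g1 by -0.27 ± 0.10 (edgeR adjusted p = 0.0451), lost without any of 6 libraries (up to 0.181).

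Higher with Asxl1-MT2 in T618I cells were Ndufv3, Cox7a2l and Ndufb11. Ndufv3, whose values in all 12 libraries are given above, differed by 0.39 ± 0.087 (edgeR adjusted p = 0.00168). Cox7a2l, which helps to join complexes III and IV into supercomplexes, had 135, 122 and 117 CPM in Asxl1-MT2/T618I and 105, 96.6 and 85.2 CPM in Empty/T618I, with 115, 126 and 122 CPM in Asxl1-MT2/Empty and 110, 92.9 and 115 CPM in Empty/Empty. The lowest Asxl1-MT2/T618I library lay above the highest Empty/T618I library (0.38 ± 0.096, edgeR adjusted p = 0.00383). Ndufb11 differed by 0.30 ± 0.10 (edgeR adjusted p = 0.0225), but its call was lost under library totals and upper quartiles and without Asxl1-MT2/T618I A or B or Empty/T618I C (up to 0.182), and 12.9% of its exon bases lie over Rbm10 on the other strand. The median of complex IV was 0.098 under TMM and -0.029 or -0.016 under library totals or upper quartiles, so its direction depends on the scaling. Empty/T618I C also weighs on it. Summed over complex IV, Asxl1-MT2/T618I libraries stood at 0.927 to 0.955 of the Empty/Empty mean. Empty/T618I A, B and C stood at 0.962, 0.911 and 0.743. Without Empty/T618I C, the median of all members in this comparison was -0.12.

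**Figure D4:**
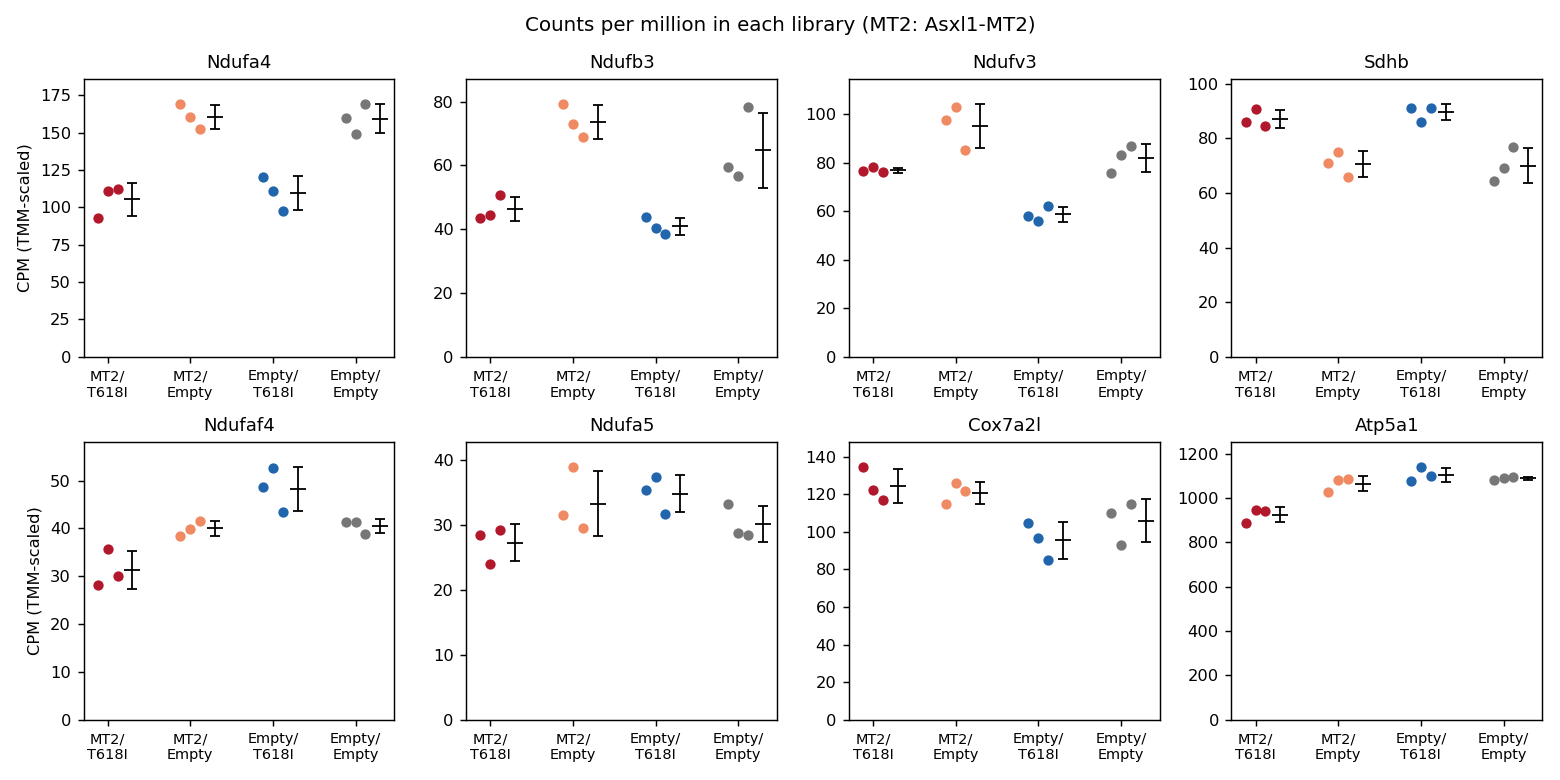
CPM (vertical axis, from 0) of 8 members in each library, by group (horizontal axis; MT2 stands for Asxl1-MT2), with points for libraries A, B and C from left to right and a bar with whiskers for the mean ± SD, n = 3. Ndufa4 and Ndufb3 are low and Sdhb high in both T618I groups, while Ndufaf4 is lowest in Asxl1-MT2/T618I and highest in Empty/T618I. For Ndufaf4 the difference between Empty/T618I and Empty/Empty was not called.

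Whether the effect of Asxl1-MT2 differed between cells with and without T618I was tested as an interaction. Of all genes tested 19.6% passed (14.1% higher, 5.51% lower), and 22.2% of those of at least 10 CPM. Among the 84 members 0 were higher and 2 lower, 2.38%, while 10 had an unadjusted p under 0.05, and DESeq2 called 0 higher and 4 lower. The median was -0.086, against 0.015 for all genes, and -0.20 in complex III and -0.25 in the assembly factors. For Ndufaf4 the interaction was -0.61 ± 0.14 (edgeR adjusted p = 0.00654, at most 0.022 when 1 library was left out). For Ndufa5, in the ubiquinone module, it was -0.50 ± 0.17 (edgeR adjusted p = 0.0488), from 28.5, 24.0 and 29.2 CPM in Asxl1-MT2/T618I, 31.4, 38.9 and 29.4 CPM in Asxl1-MT2/Empty, 35.4, 37.3 and 31.7 CPM in Empty/T618I and 33.2, 28.7 and 28.4 CPM in Empty/Empty. The Asxl1-MT2/T618I libraries of Ndufa5 lay below those of Empty/T618I and just below those of Asxl1-MT2/Empty, and overlapped those of Empty/Empty. The call was lost without any of 8 of the 12 libraries, with an adjusted p of up to 0.141. DESeq2 also called Atp5a1 and Atp5b. Library totals and upper quartiles gave 11 and 12 lower members, with the median of all genes at -0.090 and -0.091 and the higher share of all calls at 48.5% and 47.5% in place of 71.9%, and 17 members were lower without the libraries of letter C.

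Genes around the respiratory chain were read from lists of assembly factors and neighbouring pathways. With T618I in Asxl1-MT2 cells, where 22.8% of all genes were lower and 26.9% higher, lower were 4 of 8 complex I assembly factors outside the members, 3 of 4 for complex II, 2 of 6 for complex III, 8 of 23 for complex IV and 2 of 4 for the ATP synthase, with 0 higher in each. Acad9, which assembles complex I, changed by -0.80 ± 0.11 (edgeR adjusted p = 1.35e-05), and Sdhaf4, which assembles complex II, by -1.17 ± 0.30 (edgeR adjusted p = 0.00411). Sdhaf4 and Sdhaf3 of the complex II list were low, at 2.33 and 2.02 CPM in Asxl1-MT2/T618I and 5.28 and 3.50 CPM in Asxl1-MT2/Empty. Of 17 genes for electron carriers and coenzyme Q, 1 was higher and 9 lower, among them Etfb, a subunit of the electron transfer flavoprotein, at -0.88 ± 0.12 (edgeR adjusted p = 9.42e-06). Of 18 genes of the TCA cycle and pyruvate dehydrogenase, 10 were lower and 0 higher, and Idh2, the mitochondrial NADP-dependent isocitrate dehydrogenase, changed most, by -0.88 ± 0.082 (edgeR adjusted p = 9.98e-08). Of 21 genes of mitochondrial biogenesis, 4 were higher and 7 lower, with Polg2, the accessory subunit of the mitochondrial DNA polymerase, at 1.12 ± 0.23 and Tfb1m, a methyltransferase of mitochondrial ribosomal RNA, at -0.72 ± 0.14 (edgeR adjusted p = 0.000671 and 0.000399). Counts such as 2 of 6, 8 of 23 and 7 of 21 lower are not far above the share over all genes, and no list was tested against it.

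Without Asxl1-MT2, 15.9% of all genes were lower with T618I and 17.6% higher, and most counts in the lists lay near or below these shares. Lower were 2 of 8 complex I assembly factors, 1 of 6 for complex III and 3 of 23 for complex IV, with 0 called for complex II and the ATP synthase. Acad9 changed by -0.57 ± 0.11 (edgeR adjusted p = 0.000528). Electron carriers and coenzyme Q had 2 higher and 3 lower of 17, with Etfb at -0.70 ± 0.12 (edgeR adjusted p = 0.000168). In the TCA cycle 1 was higher and 3 lower of 18, with Idh3a, a subunit of the NAD-dependent enzyme, at 0.41 ± 0.086 and Idh2 at -0.43 ± 0.081 (edgeR adjusted p = 0.00115 and 0.000432). Biogenesis genes had 2 higher and 2 lower of 21, Nrf1 among the higher at 0.27 ± 0.094 (edgeR adjusted p = 0.0317). Of 3 adenine nucleotide and phosphate carriers, Slc25a5 was higher, at 0.20 ± 0.072 (edgeR adjusted p = 0.0458).

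With Asxl1-MT2 in T618I cells, 18.5% of all genes were lower and 25.4% higher. Here 8 of 18 TCA cycle genes, 5 of 17 electron carrier and coenzyme Q genes, 5 of 21 biogenesis genes and 2 of 3 nucleotide and phosphate carriers were lower, with 0 higher in each. Suclg2, a subunit of succinate-CoA ligase, changed by -0.61 ± 0.098 (edgeR adjusted p = 9.02e-05) and Slc25a4, an ADP/ATP carrier, by -0.37 ± 0.082 (edgeR adjusted p = 0.00151). The assembly lists had 1 lower of 8 for complex I, 1 higher and 1 lower of 4 for complex II, 1 lower of 6 for complex III, 1 higher and 2 lower of 23 for complex IV and 1 lower of 4 for the ATP synthase. Asxl1-MT2 without T618I gave 0 calls in all 9 of these lists, where 1.86% of all genes were called. In the interaction test, with 5.51% of all genes lower, 5 of 18 TCA cycle genes were lower, with Suclg2 at -0.72 ± 0.14 (edgeR adjusted p = 0.00133), and 2 of 17 carrier genes, with Cycs, cytochrome c itself, at -0.65 ± 0.15 (edgeR adjusted p = 0.00448). With T618I, Cycs was lower in Asxl1-MT2 cells, at -0.33 ± 0.10, and higher without Asxl1-MT2, at 0.33 ± 0.10 (edgeR adjusted p = 0.0144 and 0.0208). The 13 subunits encoded in mitochondrial DNA were not analysed here, as no row of the table matched them.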

How the data were processed

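The authors deposited 1 table of raw read counts per gene symbol for 12 libraries, prepared by BGI; columns were assigned to groups by name. The mm10 build and the tools Trimmomatic, STAR and DESeq2 are named, per the submitters' processing notes. The counting tool, annotation, strand setting and versions are not given in the sources used here. From the counts, edgeR 4.0.16 (R 4.3.3, limma 3.58.1) was run on all 12 libraries, with TMM factors, filterByExpr by group (11578 genes, 99.94% of counts), 1 coefficient per group, quasi-likelihood tests and Benjamini-Hochberg adjustment over all genes tested, a call being an adjusted p under 0.05. The script was tested on simulated data. The members and gene lists were chosen with earlier results of these data known. Named in each comparison were the 5 called members with the largest changes in each direction, the most abundant member of each complex (that of complex I is not reported here), tissue isoforms with their counterparts, members that failed the filter and the subunits of complex II; other called members are named after their values were seen. Alternatives were DESeq2 1.42.0 as test and as size factors, library totals, upper quartiles, no filter, the 2 groups alone, a replicate block by column letter and leaving libraries out. Reads from a gene and an antisense partner cannot be told apart. Sequences are from RefSeq (GRCm38.p6), positions and exon lengths from GENCODE (GRCm38). Figures were drawn with matplotlib 3.10.9.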

Additional observations from a re-analysis of the deposited data

Results flagged for a closer look

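2 members had an effect of Asxl1-MT2 that differed between cells with and without T618I by the interaction test, the difference being tested itself. For Ndufaf4 the log2 interaction was -0.61 ± 0.14 (SE, n = 3 per group, edgeR adjusted p = 0.00654), and it ran from -0.72 to -0.54 when 1 library was left out. Asxl1-MT2 changed it by -0.62 ± 0.10 with T618I, where all 3 Asxl1-MT2/T618I libraries lay below all 3 Empty/T618I libraries, and by -0.016 without T618I. For Ndufa5 the log2 interaction was -0.50 ± 0.17 (edgeR adjusted p = 0.0488), and it ran from -0.58 to -0.37 when 1 library was left out, with the adjusted p above 0.05 in 8 of 12 cases and up to 0.141.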

How the results depend on the processing

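With edgeR on library totals, Asxl1-MT2 with T618I gave 22 lower members and a median of -0.16, T618I with Asxl1-MT2 gave 0 higher, 48 lower and -0.30, and the interaction 11 lower and -0.19. Upper quartiles gave 19 and -0.14 in the first, 0, 51 and -0.32 in the second, and 12 and -0.19 in the interaction. Without the 4 letter C libraries, T618I without Asxl1-MT2 gave 7 higher and a median of -0.0021, Asxl1-MT2 without T618I 9 higher, Asxl1-MT2 with T618I 24 lower and -0.13, T618I with Asxl1-MT2 46 lower, and the interaction 17 lower and -0.25. Fitting only the 2 groups gave 1 higher member for T618I without Asxl1-MT2, and DESeq2 4 lower for the interaction. DESeq2 size factors moved none of these counts or medians by more than 1.5 times or the spread of libraries. Which feature of the libraries these shifts come from was not tested.

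Leaving out 1 library at a time, T618I without Asxl1-MT2 gave 1 to 3 higher, 5 to 13 lower and a median of -0.12 to -0.010. T618I with Asxl1-MT2 gave 1 to 1 higher, 21 to 35 lower and -0.24 to -0.15. Asxl1-MT2 without T618I gave 0 to 0 higher, 0 to 0 lower and 0.037 to 0.17. Asxl1-MT2 with T618I gave 2 to 4 higher, 6 to 15 lower and -0.12 to -0.013. The interaction gave 0 to 1 higher, 1 to 4 lower and -0.19 to -0.051. The log2 fold change of Cox6b2, T618I without Asxl1-MT2, ran from -6.80 to -3.08, the first without Empty/T618I C.

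Nothing in the labels says what the column letters mark. Deviations from the group means correlated by -0.061 to 0.22 in same-letter pairs of libraries, with 7 of 18 over 0.1, and by -0.226 to 0.135 in pairs of different letters, with 4 of 36 over 0.1. The A and the C libraries of Asxl1-MT2/Empty, Empty/T618I and Empty/Empty correlated with their own letter (0.147 to 0.22), while the B libraries and most pairs with Asxl1-MT2/T618I did not, so the letters were not taken as pairs. With the column letter as replicate block, edgeR gave 3 higher and 15 lower members for T618I without Asxl1-MT2, 5 and 12 for Asxl1-MT2 with T618I, 1 and 32 for T618I with Asxl1-MT2, and 0 and 3 for the interaction.

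Genes under about 10 CPM, such as Atp5s, Ndufaf6, Cox6b2, Sdhaf3 and Sdhaf4, rest on few counts.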
